A study of Bos taurus with 6 samples.

Results

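Histone mRNAs were examined in bovine 8-cell embryos cultured with or without an inhibitor of lactate production. The set holds every protein-coding gene whose symbol in the deposited files marks it as a histone gene, that is, a symbol beginning with H1-, H2A, H2B, H3-, H3C, H4C or MACROH2A or one of the older prefixes H1F, H3F and HIST. By this rule 66 of the 18862 genes in the files were members, among 16847 protein-coding genes. They comprised 7 linker histone genes, 20 H2A genes (macroH2A included), 14 H2B genes, 12 H3 genes and 13 H4 genes. Another 4 genes with histone symbols were left out because they are not annotated as protein coding. H4-16 lies outside the rule, and no gene carried the symbol H2AX.

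The control group and the GSKA group had 3 libraries each, all made from 8-cell embryos obtained by in vitro fertilisation and collected 60 h after it. GSKA embryos were kept in culture medium with 200 pmol/L GSKA, an inhibitor of lactate dehydrogenase A, from fertilisation onwards, and control embryos in the same medium without it. DMSO, the solvent of the inhibitor, was held at an equal level in both groups. The study used GSKA to lower histone lactylation, so the comparison asks whether the mRNAs of the histones themselves differed in the treated embryos. The zona pellucida was removed before lysis, and the texts do not say how many embryos made up a library or whether the 3 replicates were separate cultures. The p-values thus reflect no more than how these libraries vary, and that variation may be technical.

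DNA in the nucleus is wound around octamers of the core histones H2A, H2B, H3 and H4, and a linker histone, H1, binds where it enters and leaves the particle. Most core and linker histone genes lie in clusters, are transcribed during DNA replication and give mRNAs that end in a stem-loop and lack a poly(A) tail. Variant histones such as H2A.Z and H3.3 are instead encoded by single genes with polyadenylated mRNAs and are made throughout the cell cycle. Oocytes store histone mRNA and protein for the first cleavages, among them H1-8, the oocyte linker histone (H1FOO), which somatic linker histones replace as the embryonic genome is activated. Reverse transcription in this study was primed with oligo(dT), so mRNAs without a poly(A) tail are captured poorly. How far this lowered the values of the clustered genes was not tested.

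The unit is FPKM, the number of fragments divided by transcript length and by all mapped fragments, so that levels can be compared between genes per length. FPKM summed over all genes to 497035 to 581839 per library, and 14295 to 15370 genes were above 0. Read depth is unknown, so no counting error can be given. The mitochondrial share of FPKM was 13.2% in control replicate 1 and lay between 5.31% and 7.26% in the other 5 libraries. Embryo and oocyte genes were present in every library (12 of the 13 listed markers were found, none at 0), and the blood cell markers summed to 3.43 to 17.7 FPKM. Genes that reached an FPKM of 1 in 3 or more libraries entered limma on the log2(FPKM + 1) scale, and p-values were adjusted over all 10654 genes tested by the Benjamini-Hochberg method. A gene was called at an adjusted p under 0.05.

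The mRNAs of the histone genes spanned a wide range of abundance. None of the 66 members was at 0 in all libraries. The mean over the 6 libraries was above 1000 FPKM for 4 genes and above 100 FPKM for 16, between 10 and 100 for 19, between 1 and 10 for 21 and under 1 for 10. In total 55 members passed the filter on low values. The 11 that did not were H2BC3, H3C4, H2BC7, H2AC1, H2AW, H2AJ, H4C4, H3-3D, H1-10, MACROH2A2 and a gene named H2B, and none of them exceeded 4.68 FPKM in any library. Just inside the filter were H4C7 and H2AC4, whose third-highest library stood at 1.63 and 1.92 FPKM, and just outside were H2AW and H3C4, at 0.899 and 0.863 FPKM.

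**Figure D1:**
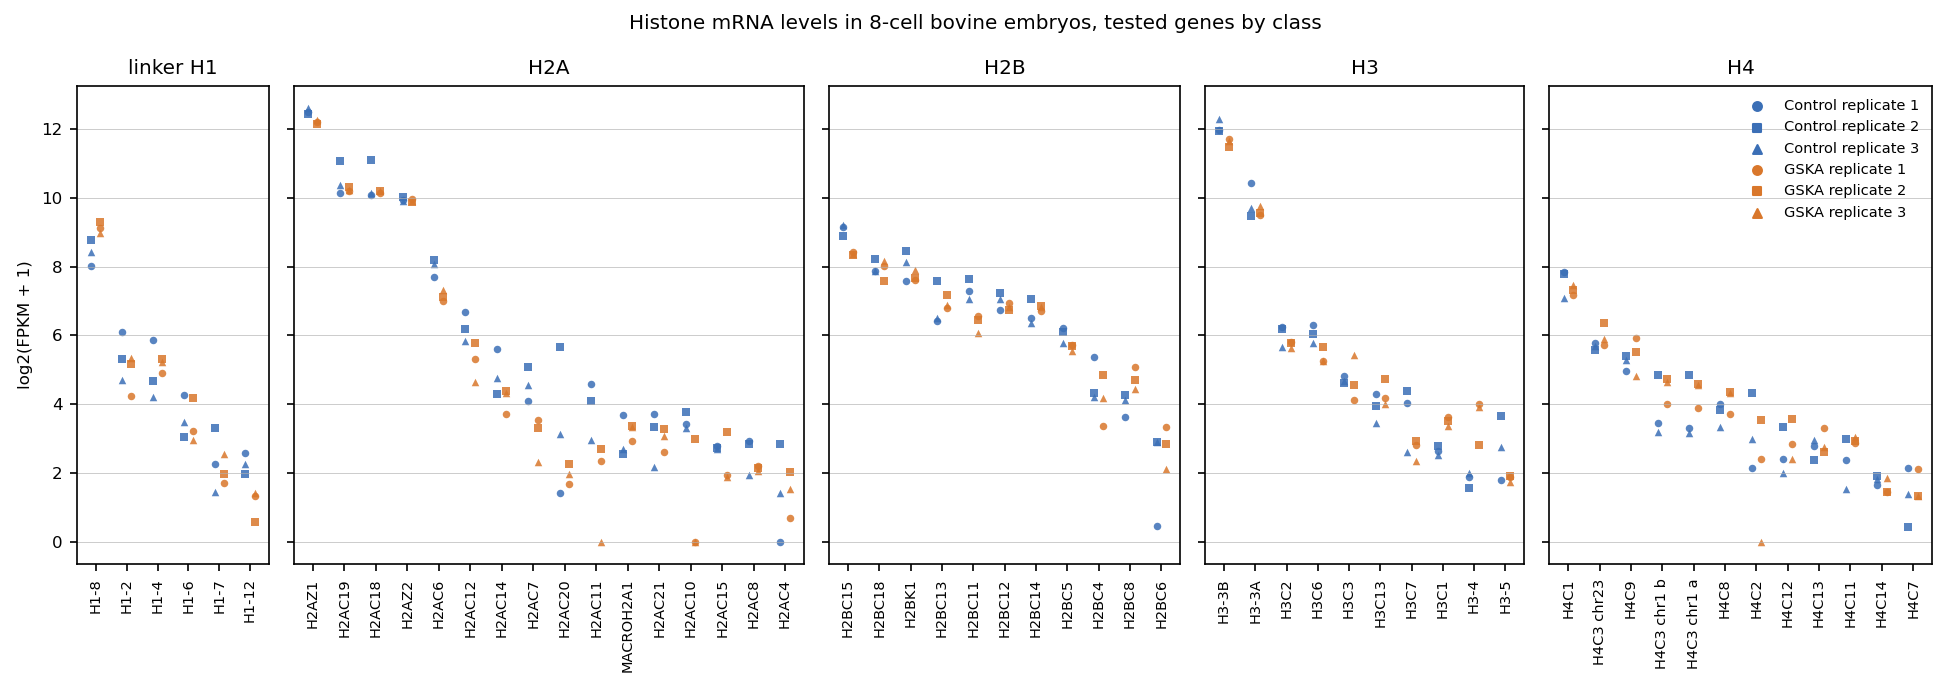
Level of each tested histone gene in each library, as log2(FPKM + 1) on the vertical axis, with the genes grouped by class and ordered by mean FPKM. Blue symbols are the 3 control libraries and orange symbols the 3 GSKA libraries, with one shape per replicate number. H2AZ1 and H3-3B stood highest, at 4505 to 6248 and 2839 to 4932 FPKM, and the highest value in the H4 panel was 227 FPKM.

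Among all genes of these embryos, H2AZ1 ranked 9th by mean FPKM and H3-3B ranked 12th. The 5 most abundant histone genes, H2AZ1, H3-3B, H2AC19, H2AC18 and H2AZ2, held 77.3% ± 2.49 of all histone FPKM in the control group and 76.0% ± 1.07 in the GSKA group (SD, n = 3 each). Among mRNAs captured by oligo(dT) priming, abundance was thus carried by variant genes and by one pair of clustered H2A genes. By symbol or description 50 genes were clustered genes (41 on chromosome 23, 7 on chromosome 3 and 2 on chromosome 1). Together they stood at 4739, 7118 and 4681 FPKM in control replicates 1, 2 and 3 and at 4163, 4437 and 4297 FPKM in GSKA embryos. The other 16 genes stood at 12610, 11953 and 13607 FPKM in control embryos and 10530, 9892 and 10636 FPKM in GSKA embryos. In neither set did the libraries of the groups overlap, and for the clustered genes control replicate 2 was far above the other controls.

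Summed over the 66 genes, histone FPKM was 17349, 19070 and 18288 in the control libraries and 14692, 14328 and 14933 in the GSKA libraries. All 3 GSKA libraries were below all 3 controls, and the mean of the GSKA group was 0.803 times that of the control group (14651 ± 305 against 18236 ± 862, SD, n = 3 each). The ratio stayed between 0.773 and 0.822 when libraries were rescaled to TPM or without mitochondrial genes or were left out one at a time, and it was 0.803 without H2AZ1. Sums were not computed under median or quantile scaling. Histone genes made up 3.37% of all FPKM in the control group and 2.68% in the GSKA group. FPKM is a share of all fragments, so less histone mRNA and more of other mRNA cannot be told apart, nor, in whole embryos, fewer cells of a type and less of the mRNA per cell. No p-value was computed for sums over the members.

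Sums by class differed in direction, and whether the classes differ from each other was not tested. H2A genes summed to 10290 ± 1041 FPKM in the control group and 8271 ± 147 in the GSKA group (SD, n = 3 each), 0.804 times the control mean. H2B genes summed to 1698 ± 184 and 1320 ± 34.1 FPKM, a ratio of 0.777, and H3 genes to 5451 ± 584 and 4062 ± 252 FPKM, a ratio of 0.745. In each of these 3 classes every GSKA library was below every control library. H4 genes summed to 369, 418 and 273 FPKM in control embryos and to 327, 391 and 348 FPKM in GSKA embryos, with equal means (354 ± 73.7 and 355 ± 33.0) and overlapping libraries. Linker histone genes were the one class with higher sums in the GSKA group, at 619, 719 and 592 FPKM against 408, 520 and 400 FPKM, a ratio of 1.45. Most of this sum was H1-8, with means of 345 FPKM in the control group and 562 FPKM in the GSKA group. The 4 clustered linker genes summed to means of 93.1 and 77.6 FPKM, a ratio of 0.834, with overlapping libraries. Of the 6 linker genes tested, 2 had a positive and 4 a negative log2 fold change.

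**Figure D2:**
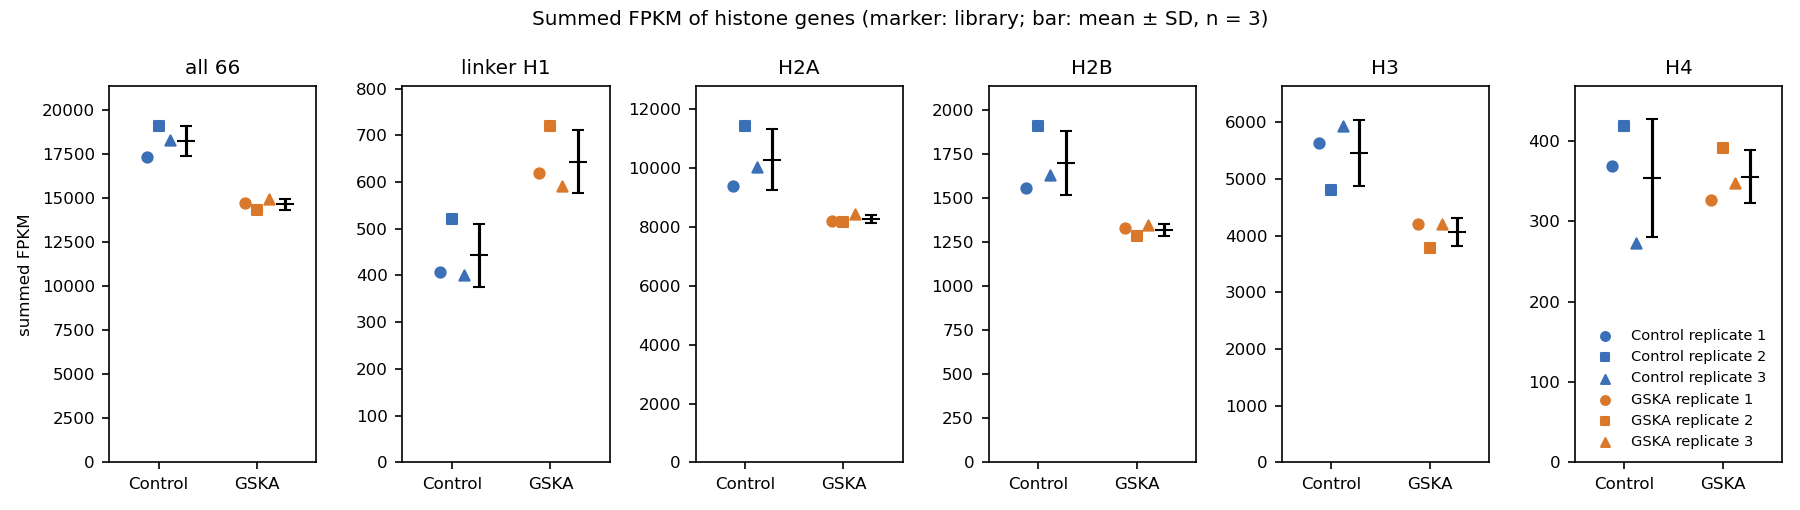
Summed FPKM of all 66 histone genes and of each class in each library, on axes that start at 0. Symbols are libraries (blue, control; orange, GSKA) and the black bars give the mean ± SD of 3 libraries. The groups do not overlap for the total (14328 to 14933 against 17349 to 19070 FPKM), H2A, H2B and H3, which are lower in the GSKA group, nor for linker H1, which is higher there, and they overlap for H4.

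Gene by gene, no histone gene passed the adjusted threshold of limma (0 of 55, smallest Benjamini-Hochberg adjusted p = 0.0825). Of all genes tested, 0.357% were called. At an unadjusted p under 0.05, 4 histone genes were higher in the GSKA group and 11 were lower. These are 7.27% and 20.0% of the 55, where the shares over all genes tested were 9.4% higher and 4.03% lower. All 3 GSKA libraries were above all 3 controls for 4 histone genes (7.27%) and below them for 12 (21.8%), against 12.9% and 6.45% of all genes tested. The median log2 fold change of the 55 genes was -0.25, with 20 genes above 0 and 35 below, whereas the median over all genes was 0.090. Of the 11 lower genes, H2AC10, H2AC11 and H1-12 passed the filter only with control libraries, where they were higher. This holds for every count below that includes them. As the members were not drawn at random and several share a cluster or reads, these shares are a description and not a test. The count of lower genes was 7 without GSKA replicate 3, and the count of higher genes was 8 without control replicate 2 and 2 without either GSKA replicate 1 or GSKA replicate 2.

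Many histone genes sit inside or across the annotated span of another gene, and 27 of the 66 do so. The library kit does not mark strand, so fragments in the shared part cannot be assigned with certainty to one of the genes. Of the 39 genes with no such overlap 30 were tested, with a median log2 fold change of -0.26. At an unadjusted p under 0.05, 3 of these were higher (10%) and 6 lower (20%), against 9.4% and 4.03% of all genes tested. Coordinates below are those of the deposited files, and the sources used here name no genome build for them.

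**Figure D3:**
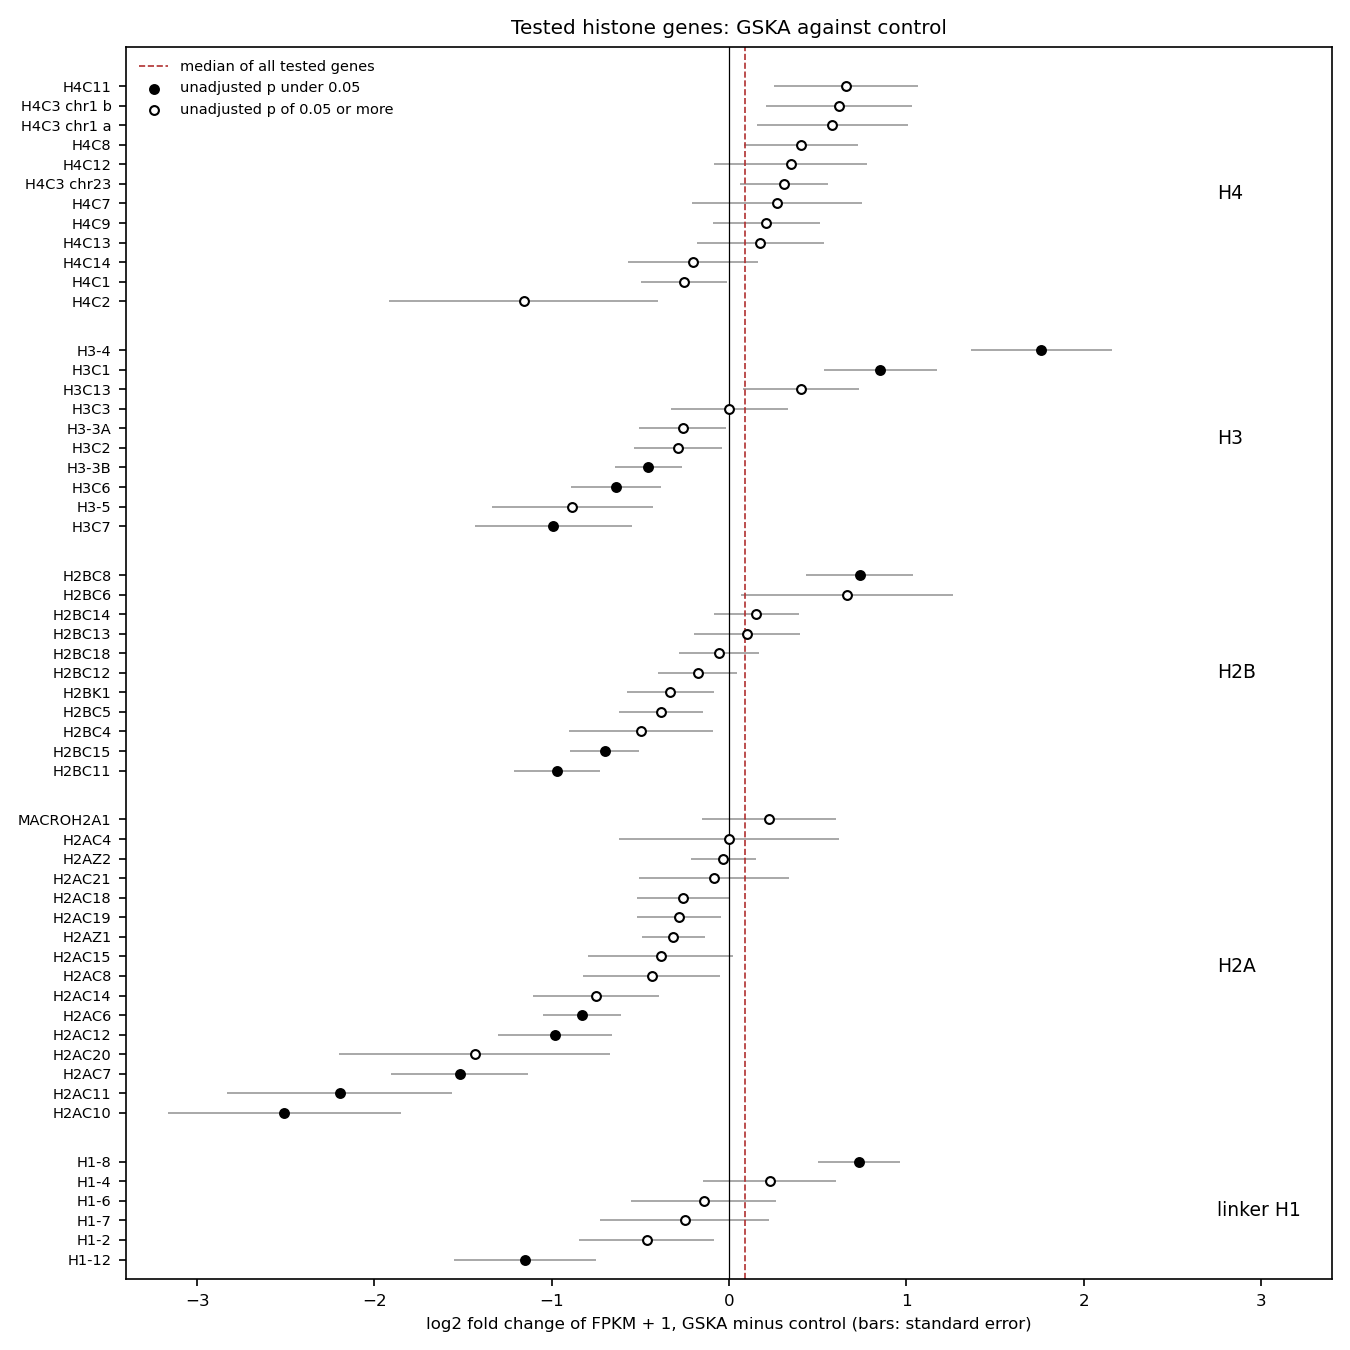
Log2 fold change of FPKM + 1 (GSKA minus control, horizontal axis) for the 55 tested histone genes, ordered within each class, with the standard error from limma as bars. Filled circles are genes with an unadjusted p under 0.05 and open circles the others, and the dashed line is the median of all tested genes (0.090). Clustered H2A genes lie at or left of 0 (H2AC4 right of it under TPM and non-mitochondrial scaling), 9 of 12 H4 genes lie right of it, and the extremes are H3-4 at 1.76 and H2AC10 at -2.51.

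The linker class was dominated by H1-8 (chromosome 22, 56187762 to 56218695, minus strand), the oocyte linker histone. It was at 256, 436 and 342 FPKM in control embryos and at 560, 625 and 502 FPKM in GSKA embryos. Every GSKA library was above every control. The group means were 345 ± 90.4 and 562 ± 61.9 FPKM (SD, n = 3 each), and the log2 fold change was 0.73 (standard error 0.230), which did not pass the adjusted threshold (limma, Benjamini-Hochberg adjusted p = 0.191). The unadjusted p was under 0.05 in the data as deposited and in 15 of 15 alternative settings, over which the log2 fold change ranged from 0.54 to 0.92 and the adjusted p from 0.115 to 0.531.

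H1-8 supplied 77.3% of linker histone FPKM in control embryos and 87.4% in the GSKA group. Control replicate 1 was the lowest, at 62.6%, and the same library had the highest H1-2 and H1-4 levels. H1-2, a replication-dependent somatic linker histone, was at 67.9, 39.2 and 25.2 FPKM in control embryos and at 17.8, 34.8 and 39.999 FPKM in GSKA embryos (log2 fold change -0.47). H1-4, another somatic form, was at 57.6, 24.8 and 17.4 FPKM and at 29.0, 38.5 and 36.9 FPKM (log2 fold change 0.23). Both genes overlapped between the groups, and their values rested on single libraries. With a library left out, H1-2 ranged from -0.80 (without control replicate 3) to -0.10 (without control replicate 1) and was -0.12 without GSKA replicate 1. H1-4 ranged from -0.13 (without control replicate 3) to 0.70 (without control replicate 1, limma adjusted p = 0.329). H1-12, a clustered linker gene, was lower in all 3 GSKA libraries (1.51, 0.493 and 1.71 FPKM against 4.96, 2.90 and 3.78), with a log2 fold change of -1.15 (limma, adjusted p = 0.237), but its span overlaps H3C4. The testis linker histones H1-6 and H1-7 were at 7.36 to 18.1 and 1.73 to 8.92 FPKM over the 6 libraries, but the span of H1-6 overlaps the H4C3 gene on chromosome 23. H1-10, the gene of the variant H1.X, was at most 0.361 FPKM.

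Transcripts known from oocytes and early embryos were examined beside H1-8. Of the 12 markers, H1-8 among them, 5 were higher at an unadjusted p under 0.05 and 0 lower (all genes, 9.4% and 4.03%), and the median log2 fold change was 0.48. BMP15, DPPA3 and OOEP overlapped between the groups, with log2 fold changes of 0.10, 0.13 and -0.019. The summed level of the 12, H1-8 included, was 2118 to 2710 FPKM in control embryos and 2609 to 3171 FPKM in GSKA embryos, which overlap. Of the 12, 1 was called (all genes, 0.357%). It was KHDC3L, a member of the subcortical maternal complex (log2 fold change 1.46, limma adjusted p = 0.0348), which was not followed across the alternative settings. Of the 13 cumulus and granulosa markers 11 were found, and they summed to 41.3 to 58.6 FPKM in control embryos and 72.8 to 83.3 FPKM in GSKA embryos. STAR, which brings cholesterol into mitochondria for steroid synthesis, was at 20.1 to 40.3 FPKM in control embryos and 43.5 to 50.6 FPKM in GSKA embryos, and TNFAIP6, a protein of the expanding cumulus matrix, at 4.31 to 11.3 and 15.2 to 16.6 FPKM, both higher without overlap, while CYP19A1 and NR5A1 were at most 0.131 and 0.00718 FPKM. Of the 11 markers 5 were tested, with 3 higher (60%) and 0 lower at an unadjusted p under 0.05 (all genes, 9.4% and 4.03%). Without overlap, 2 of the 5 were higher (40%, against 12.9% of all genes). Among the 5 tested, 4 log2 fold changes were above 0 and 1, that of CD44, was below (-0.50, groups overlapping). The part of these marker transcripts in the H1-8 result was not tested.

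Captured H2A transcripts came mostly from the H2A.Z variants, which mark promoters and other regulatory regions. As oligo(dT) priming captures mRNAs without a poly(A) tail poorly, shares within a class hold for captured mRNA only. H2AZ1 (chromosome 6, 24736918 to 24739414) was at 5753, 5526 and 6248 FPKM in control embryos and at 4709, 4505 and 4871 FPKM in GSKA embryos. All 3 GSKA libraries were lower, but the log2 fold change was -0.31 (standard error 0.179), did not pass the test (limma, adjusted p = 0.482) and was -0.032 under quantile normalization. H2AZ2, which encodes the second H2A.Z protein, was at 982, 1027 and 952 FPKM in control embryos and 993, 944 and 958 FPKM in GSKA embryos. The H2AZ2 libraries overlapped, with a log2 fold change of -0.032 (standard error 0.182, 0.0011 under quantile normalization). H2AZ1 and H2AZ2 together made up 66.9% of H2A FPKM in control embryos and 68.4% in the GSKA group.

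Next in the class stood H2AC18 and H2AC19, neighbouring replication-dependent genes of the chromosome 3 cluster with very similar values. H2AC18 was at 1073, 2192 and 1131 FPKM in control embryos and at 1132, 1163 and 1175 FPKM in GSKA embryos, and H2AC19 at 1132, 2157 and 1309 and at 1159, 1278 and 1200 FPKM. The level of H2AC18 over that of H2AC19 lay between 0.864 and 1.02 in every library, so their assignment as near-identical copies is uncertain. Control replicate 2 was far above the other 5 libraries for both genes, and the same library had 49.5 FPKM of H2AC20, from the same cluster, against 1.67 to 7.88 FPKM elsewhere. The log2 fold changes were -0.26 for H2AC18 and -0.28 for H2AC19, and without control replicate 2 they were 0.070 and -0.0076. Without control replicate 1 that of H2AC19 was -0.47.

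Clustered H2A genes made up 5 of the 11 histone genes that were lower at an unadjusted p under 0.05. These 5 are 38.5% of the 13 tested, against 4.03% of all genes tested, and 0 of the 13 were higher (all genes, 9.4%). All 13 tested clustered H2A genes had a log2 fold change below 0 (median -0.75), as had 4565 of all 10654 genes tested. Several of the 13 share a cluster or reads. H2AC10 and H2AC11, both among the 5, passed the filter only with control libraries, where they were higher. The counts are thus a description. H2AC4 was the nearest to 0 (log2 fold change -0.0020) and was positive at a pseudocount of 0.1 and when the libraries were rescaled to TPM or to FPKM without mitochondrial genes. Without control replicate 2, 10 of the 13 were below 0 and the median was -0.40.

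H2AC6 (chromosome 23, 31818805 to 31828988, minus strand), the most abundant of the 5, was at 205, 290 and 268 FPKM in control embryos and at 127, 138 and 159 FPKM in GSKA embryos. Its log2 fold change was -0.83 (standard error 0.221, limma adjusted p = 0.129), and a microRNA gene, bta-mir-6531, lies within its span. H2AC12 was at 102, 71.2 and 56.4 FPKM and at 38.9, 54.2 and 24.3 FPKM, and H2AC7 at 15.97, 33.2 and 22.7 FPKM and at 10.7, 8.91 and 4.05 FPKM. For these 3 replication-dependent genes every GSKA library was below every control. H2AC12 showed a log2 fold change of -0.98 (adjusted p = 0.209) and H2AC7 of -1.52 (adjusted p = 0.119, both from limma).

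H2AC10 and H2AC11 had the most negative values of all histone genes, at low levels. H2AC10 was at 9.73, 12.6 and 8.98 FPKM in control embryos, and in the GSKA libraries it was listed at 0 in replicates 1 and 3 and at 6.94 FPKM in replicate 2. H2AC11 was at 23.1, 16.2 and 6.81 FPKM in control embryos while GSKA replicates 1 and 2 had 4.14 and 5.53 FPKM and replicate 3 was listed at 0. The log2 fold changes were -2.51 for H2AC10 (adjusted p = 0.126) and -2.20 for H2AC11 (adjusted p = 0.152, both from limma), and at a pseudocount of 0.1 they were -4.66 and -3.36. Without GSKA replicate 3 that of H2AC11 was -1.35. H2AC10 lies within the span of H4C8. It was the one histone gene called in any setting, without GSKA replicate 2, when both remaining GSKA libraries were at 0 (log2 fold change -3.50, limma adjusted p = 0.0120).

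The remaining H2A variants were scarce. MACROH2A1, whose product carries a large additional domain and is enriched on the inactive X chromosome, was at 4.85 to 11.9 FPKM in control embryos and 6.61 to 9.26 FPKM in GSKA embryos, with a log2 fold change of 0.23 (standard error 0.378). MACROH2A2 was above 0 in 1 library, at 0.185 FPKM. H2AJ, which encodes H2A.J, did not exceed 1.61 FPKM, and H2AC1, the testis form, did not exceed 2.29 FPKM.

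H2B transcripts were spread more evenly over the clustered genes. H2BC15 (chromosome 23, 30972348 to 30976581, minus strand) was the most abundant and was at 570, 471 and 589 FPKM in control embryos and at 343, 323 and 330 FPKM in GSKA embryos. The groups were well separated, with means of 543 ± 63.7 and 332 ± 10.5 FPKM (SD, n = 3 each), and the log2 fold change was -0.70 (standard error 0.196, limma adjusted p = 0.139). The share of H2BC15 in H2B FPKM was 32.5% in the control group and 25.2% in the GSKA group. Its span overlaps 4 other histone genes, H2AC14, H2BC14, H4C11 and H4C13.

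H2BC11 was at 156, 199 and 132 FPKM in control embryos and at 93.9, 86.9 and 65.7 FPKM in GSKA embryos. This gene overlaps no other, and its log2 fold change was -0.97 (standard error 0.243, limma adjusted p = 0.119). H2BC8 differed in the opposite direction, at 11.4, 18.4 and 16.4 FPKM in control embryos and 32.8, 25.1 and 20.9 FPKM in GSKA embryos (log2 fold change 0.74, adjusted p = 0.304). All 3 of its GSKA libraries were above all controls. H2BC18, of the chromosome 3 cluster, was at 234, 294 and 231 FPKM and at 259, 191 and 284 FPKM, with a log2 fold change of -0.057 that was positive without control replicate 2 (0.057) or without GSKA replicate 2 (0.11). H2BK1, the gene of the germ cell variant H2B.K outside the clusters on chromosome 4, was at 191, 351 and 279 FPKM and at 193, 203 and 240 FPKM, overlapping between the groups (log2 fold change -0.33, standard error 0.246, -0.13 without control replicate 2 and -0.57 without control replicate 1). Thus H2B genes were found on both sides of 0, with 4 positive and 7 negative among 11 tested.

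Captured H3 transcripts were almost all of the replacement variant H3.3, which is deposited independently of DNA replication and is encoded by H3-3A and H3-3B. These genes made up 96.3% of H3 FPKM in control embryos and 95.8% in the GSKA group. H3-3B (chromosome 19, 55821418 to 55823783) was at 4023, 3880 and 4932 FPKM in control embryos and at 3321, 2839 and 3171 FPKM in GSKA embryos. All GSKA libraries were below all controls, with a log2 fold change of -0.45 (standard error 0.190, limma adjusted p = 0.314). It was -0.25 under quantile normalization, and the unadjusted p was under 0.05 in 7 of 15 alternative settings. H3-3A was at 1382, 704 and 836 FPKM in control embryos and at 726, 753 and 861 FPKM in GSKA embryos. The H3-3A level of control replicate 1 stood apart from the other 5 libraries, and the log2 fold change of -0.26 was 0.020 without that library. H3-5, known in human as a testis variant related to H3.3, was at 2.52, 11.6 and 5.81 FPKM and at 2.72, 2.82 and 2.39 FPKM (log2 fold change -0.88, adjusted p = 0.427). Without control replicate 2, its highest library, the value was -0.43, and without control replicate 1 it was -1.35.

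H3-4 had the smallest p of all histone genes. It encodes H3t, known in human as a testis H3 form, and lies on chromosome 7 from 2590769 to 2591179, outside the main clusters. It was at 2.72, 1.98 and 3.05 FPKM in control embryos and at 15.3, 6.13 and 14.1 FPKM in GSKA embryos. The lowest GSKA library was above the highest control, and the means were 2.58 ± 0.549 and 11.8 ± 4.97 FPKM (SD, n = 3 each). The log2 fold change was 1.76 (standard error 0.397), with a limma adjusted p of 0.0825, and over 15 alternative settings it lay between 1.55 and 2.14 with adjusted p-values of 0.0680 to 0.368. Sperm markers, 10 of 13 found and including the histone genes H1-7 and H2AC1, summed to 6.70 to 14.7 FPKM in control embryos and 13.4 to 17.8 FPKM in GSKA embryos. Of the 10, 4 were tested, with 1 higher (25%) and 0 lower at an unadjusted p under 0.05 (all genes, 9.4% and 4.03%). The higher one, TNP2, reached 1 FPKM in GSKA libraries only (1.31 to 5.13 FPKM, controls at most 0.872). The other 3 log2 fold changes were below 0. The part of sperm transcripts in the H3-4 values was not tested.

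Among the replication-dependent H3 genes, H3C2 and H3C6 were the most abundant. H3C6 was at 77.4, 64.6 and 53.6 FPKM in control embryos and at 37.3, 49.8 and 37.3 FPKM in GSKA embryos, with no overlap (log2 fold change -0.64, limma adjusted p = 0.292). H3C2 was at 74.9, 71.4 and 49.2 FPKM and at 55.1, 54.2 and 48.2 FPKM, which overlap (log2 fold change -0.29). H3C7, at 15.5, 20.0 and 5.11 FPKM against 5.996, 6.58 and 4.08 FPKM, showed a log2 fold change of -0.99 (adjusted p = 0.352) although 1 control lay within the range of the GSKA libraries. It was -0.64 without control replicate 2 and -1.53 without control replicate 3. H3C1 was higher in all GSKA libraries, at 11.5, 10.5 and 9.24 FPKM against 5.24, 5.86 and 4.83 FPKM (log2 fold change 0.85, adjusted p = 0.270), and its span overlaps H4C2.

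H4 genes, which have no variant gene among the members, were the least abundant core class in the captured mRNA. Of the 12 tested, 9 had a positive and 3 a negative log2 fold change (median 0.29). Over all 10654 genes tested, 6089 were positive and 4565 negative (median 0.090). None of the 12 H4 genes had an unadjusted p under 0.05. The H4 split was 9 to 3 under each of the 4 scalings tried, and 6 to 6 without GSKA replicate 1. The most abundant, H4C1, was at 227, 219 and 136 FPKM in control embryos and at 143, 160 and 174 FPKM in GSKA embryos (log2 fold change -0.26, standard error 0.243, and -0.49 to -0.12 with a control library left out). The H4C3 gene on chromosome 23 was at 54.0, 46.4 and 51.0 FPKM and at 52.1, 81.2 and 58.2 FPKM (log2 fold change 0.31), and H4C9 was at 30.0, 41.0 and 38.3 FPKM and at 59.3, 45.1 and 27.5 FPKM (log2 fold change 0.21). In all 3 genes the groups overlapped, and their spans overlap those of H4C2, H1-6 and H2BC12, in that order. Another 2 genes named H4C3 lie 42199 bases apart on chromosome 1, and the level of the one over the other was 1.01 to 1.13 in every library, so fragments may have been split between copies.

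By position, the large cluster on chromosome 23 held 41 genes, which summed to 2247, 2342 and 1970 FPKM in control embryos and to 1557, 1715 and 1563 FPKM in GSKA embryos, which do not overlap, at a ratio of 0.737. Of the 36 tested, 10 were lower (27.8%) and 2 higher (5.56%) at an unadjusted p under 0.05, against 4.03% and 9.4% of all genes tested. The 7 genes of the chromosome 3 cluster (20720417 to 20779821) summed to 2474, 4720 and 2695 FPKM and to 2576, 2673 and 2688 FPKM, which overlap, and none of them had an unadjusted p under 0.05, although 6 of the 7 log2 fold changes were below 0. Outside the clusters, H2AZ1 on chromosome 6 and H3-3B on chromosome 19 were also lower in every GSKA library. Whether the clusters differ from each other was not tested.

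Chromosome 23 holds the cluster in separate blocks. At an unadjusted p under 0.05, 4.03% of all genes tested were lower and 9.4% higher. The block from 31352111 to 31363753 had 5 genes with a median log2 fold change of -0.97. Of these, H2AC11, H2AC12 and H2BC11 were lower at that threshold (3 genes, 60%). The largest block, from 31696654 to 31915463, held 27 genes, of which 23 were tested, with a median of -0.29. Of the 23, 6 were lower (26.1%) and 2 higher (8.7%). The block from 30948090 to 31002870 held 8 genes with a median of 0.13 and 1 lower gene, H2BC15 (12.5%). Genes on both sides of 0 were thus found side by side within the same block.

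H2A and H2B genes often lie head to head with a short shared promoter. Pairs were taken as such genes on opposite strands with annotated starts under 1000 bases apart. By this rule 6 pairs were found, all on chromosome 23, with 228 to 323 bases between their starts. The captured mRNA levels of the partners were far from equal. H2AC15 was at a mean of 5.14 FPKM over the 6 libraries and its partner H2BC15 at 438 FPKM, a ratio of 85.1, while H2AC6 was at 198 FPKM and its partner H2BC4 at 21.9 FPKM. The spans of H2AC15 and H2BC15 overlap other histone genes, so their fragments cannot be assigned with certainty. The H2B partner was the higher in all 6 libraries in 4 pairs and the lower in all 6 libraries in the other 2 (H2AC6 with H2BC4, and H2AC7 with H2BC7). H2AC11 and H2BC11 were both lower in the GSKA group (log2 fold changes -2.20 and -0.97), whereas H2AC8 and H2BC8 had values of opposite sign (-0.44 and 0.74).

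**Figure D4:**
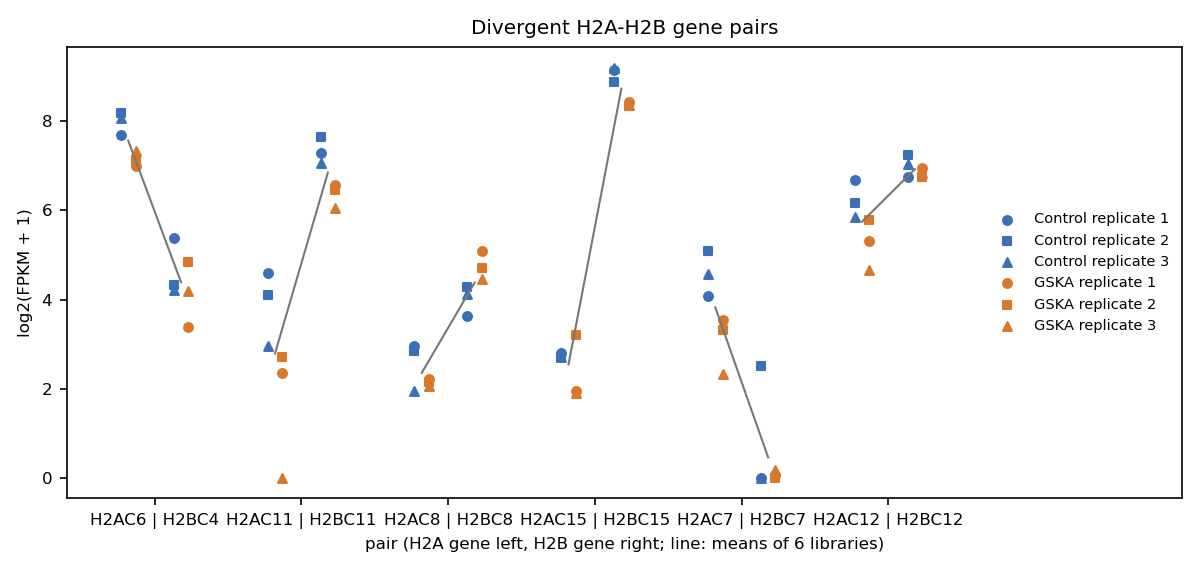
Levels of the 6 head-to-head H2A and H2B gene pairs on chromosome 23, as log2(FPKM + 1) per library, with the H2A gene on the left and the H2B gene on the right of each pair. Blue symbols are control and orange symbols GSKA libraries, and a line joins the means of the 6 libraries. The lines rise in 4 pairs and fall in 2. The widest gap is between H2AC15 (5.14 FPKM) and H2BC15 (438 FPKM), whose spans overlap other histone genes.

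Genes that make or process histone mRNA did not pass the test either. Of 39 such genes 36 were tested, and limma called 0 of them, where 0.357% of all genes tested were called. At an unadjusted p under 0.05, 2 were higher (5.56%) and 1 lower (2.78%), against 9.4% and 4.03% of all genes tested. The median log2 fold change was 0.13. SLBP2, the oocyte form of the protein that binds the histone mRNA stem-loop, was at 200, 159 and 223 FPKM in control embryos and at 384, 379 and 319 FPKM in GSKA embryos. No library overlapped, and the log2 fold change was 0.90 (standard error 0.214, limma adjusted p = 0.101). CCNE1, the cyclin E1 gene whose kinase activates histone gene transcription at the start of S phase, was at 89.3, 104 and 147 FPKM and at 78.3, 60.4 and 65.9 FPKM (log2 fold change -0.70, adjusted p = 0.248). WDR33, a subunit of the polyadenylation machinery, showed a log2 fold change of 0.84 (adjusted p = 0.279), and CPSF3, the nuclease that cuts histone precursor mRNA, one of 0.58 (adjusted p = 0.413).

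Histone chaperones carry histones and place them on DNA. Of 49 such genes 45 were tested, and limma called 0 of them, where 0.357% of all genes tested were called. At an unadjusted p under 0.05, 2 were higher and 2 lower (4.44% each), against 9.4% and 4.03% of all genes tested. The median log2 fold change was -0.0063. NPM2, the nucleoplasmin of oocytes, which stores H2A and H2B and acts on sperm chromatin, was at 215, 362 and 208 FPKM in control embryos and at 327, 518 and 471 FPKM in GSKA embryos. One control was above the lowest GSKA library, and the log2 fold change was 0.77 (standard error 0.263, adjusted p = 0.233). CHAF1B, a subunit of the factor that places H3 and H4 behind the replication fork, showed a log2 fold change of 0.87 (adjusted p = 0.308). ZNHIT1, a subunit of the complex that loads H2A.Z, was at 92.9, 159 and 78.4 FPKM and at 56.8, 70.0 and 73.0 FPKM, a log2 fold change of -0.66 (adjusted p = 0.323). SUPT6H, a chaperone that travels with RNA polymerase II, had one of -0.75 (adjusted p = 0.354).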

How the data were processed

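RNA of 8-cell embryos was measured in 6 libraries made with the SMART-Seq v4 kit after oligo(dT) priming. The authors deposited FPKM values per gene, one table per library. Tools named in the submitters' processing notes are edgeR, StringTie 1.3.4d, HISAT2 2.0.4 and cutadapt 1.9. A genome build was not given in the sources used here. A table of the authors' own comparison, with folds, p-values and q-values, was not used. FPKM keeps no counts, so a test on counts was not run and the precision that depth allows cannot be given.

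Groups were taken from the sample titles. Genes that reached an FPKM of 1 in 3 or more libraries were fitted on the log2(FPKM + 1) scale by limma 3.58.1 (R 4.3.3), with group as the only term, an intensity trend in the variance and Benjamini-Hochberg adjustment over the 10654 genes tested. An exact permutation test of 3 libraries against 3 cannot give a p below 0.1 and was not used. Fold changes on this scale understate those of low genes. The procedure was tested on simulated data. Histone classes were set by symbol. Clustered genes were those with a symbol of the H2AC, H2BC, H3C or H4C series or with a description that names a cluster. Position was used only to divide these genes by chromosome and into blocks.

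Genes were named by rule: H1-8, histone genes with an unadjusted p under 0.05, the 12 most abundant, the solitary variants, the 3 most abundant of each class, those at the edge of the filter, and the 4 genes with the smallest p in each of the lists of histone mRNA processing genes and chaperones. Other members, and the markers KHDC3L, BMP15, DPPA3, OOEP, STAR, TNFAIP6, CD44, VCAN, CYP19A1, NR5A1 and TNP2, were named after their values were seen. The members and lists were chosen with earlier results of these data known. Alternatives changed the pseudocount (0.1), the filter (none, or 5 FPKM), the scaling (quantile, median, TPM, FPKM without mitochondrial genes), the variance trend, the replicate number as a block, and left out each library in turn. No sequences are shown.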

Additional observations from a re-analysis of the deposited data

How the results depend on the processing

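None of the 15 alternative fits called a histone mRNA processing or chaperone gene, and none called a histone gene except the fit without GSKA replicate 2 (0 to 1 with a library left out). With a library left out, the histone genes at an unadjusted p under 0.05 numbered 2 to 8 higher and 7 to 13 lower, and under the other settings 3 to 4 higher and 8 to 13 lower. The median log2 fold change of histone genes was -0.35 to -0.12. The number of all genes called, 38 in the data as deposited, was 15 at a pseudocount of 0.1, 21 with median scaling, 7 without the intensity trend, 4 to 42 with a library left out, and 0 in limma with no filter, where 1664 genes had an unadjusted p under 0.05. The cause of these shifts was not tested. With the replicate number as a block 19 genes were called, 0 of them histone genes, and the histone counts stayed at 4 higher and 11 lower. Same-numbered libraries deviated together with correlations of -0.0824, 0.136 and -0.125, so the numbers were not taken to pair them.

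Single named genes kept their sign in 566 of 581 values, and 8 genes account for the 15 exceptions. H2AC4 was at 0.68 with a pseudocount of 0.1, 0.076 with TPM and 0.088 with FPKM without mitochondrial genes, and H2AZ2 at 0.0011 with quantile normalization. With a library left out, H3-3A ranged from -0.47 to 0.020, H2AC18 from -0.44 to 0.070, H2BC18 from -0.17 to 0.11, H1-4 from -0.13 to 0.70, H4C9 from -0.034 to 0.51, H4C7 from -0.18 to 0.68 and H2AC4 from -0.71 to 0.71. These are log2 fold changes.

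Read depth is unknown, which limits what can be said of genes at a few FPKM.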
